A study of Mus musculus with 18 samples.

Results

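*Id1*, *Id2* and *Id3*, together with 7 genes of bone morphogenetic protein (BMP) and transforming growth factor beta (TGF-beta) signaling, were followed in bone marrow-derived macrophages (BMDMs) with and without *Prep*, which encodes prolyl endopeptidase. The 7 genes were *Smad6*, *Smad7*, *Tgfb1*, *Tgfbr1*, *Tgfbr2*, *Bmpr1a* and *Bmpr2*. All 10 genes were among the 16314 gene symbols of the count table, and all 10 were among the 12021 genes that passed the filter on low counts. *Id1* was chosen by its fall in these same knockout comparisons, so its values are a description without a test. The other 9 genes were chosen as relatives of *Id1* by family or pathway, with earlier results of these data known.

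The libraries were bulk RNA-seq of BMDMs from C57BL6/J mice, grown from bone marrow for 7 days with M-CSF, the growth factor that makes marrow cells into macrophages. *Prep*-/- mice lacked the gene in all tissues, and *Prep*+/- littermates, which carry 1 intact copy, served as controls, so every control was itself heterozygous. Cells were left unstimulated (M0), given 50 ng/ml LPS for 24 h (M1), or given IL-4 together with IL-13, each at 20 ng/ml, for 24 h (M2). Each of the 6 groups had 3 biological replicates, 18 libraries in all. Levels are given in CPM, which are counts scaled to the size of each library after TMM normalization.

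Id proteins are short helix-loop-helix proteins without a DNA-binding region. They pair with E proteins and other basic helix-loop-helix factors and keep them off DNA. BMPs bind a complex of type I and type II receptors that phosphorylates Smad1, Smad5 and Smad8, and the Id genes are textbook targets of these Smads. TGF-beta binds Tgfbr2, which recruits Tgfbr1 and leads to phosphorylation of Smad2 and Smad3. Smad6 and Smad7 are inhibitory Smads that both branches induce and that act back on the receptors. In macrophages, TGF-beta is known for restraining inflammatory gene expression.

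Promoter windows of RefSeq, which span the start of a gene, were present for 8 of the 10 genes, *Id2*, *Id3*, *Smad6*, *Tgfb1*, *Tgfbr1*, *Tgfbr2*, *Bmpr1a* and *Bmpr2*. They were searched on both strands for the letters GGCGCC, the core of the BMP response element, which reads the same on both strands. They were also searched for the Smad box, GTCT or its complement AGAC. The BMP response element core stood in windows of *Id2*, *Tgfbr1*, *Bmpr1a* and *Bmpr2*, and in 11.9% of the 32851 windows of all genes. *Tgfbr1* had 2 windows, of which 1 held the core. The core is all G and C, and the windows compared were not matched for GC content. A pair of Smad boxes facing each other, GTCTAGAC, which holds both Smad box forms, stood in the window of *Smad6* and in 0.213% of all windows. At least 1 Smad box stood in a window of 7 of the 8 genes, and in 88% of all windows. The E-box CANNTG, which E proteins bind, stood in windows of *Id2*, *Smad6*, *Tgfbr1* and *Tgfbr2*, and in 72.3% of all windows. A match of letters is a description and not a binding site. *Id2* and *Bmpr1a* fell in *Prep*-/- M0, while *Tgfbr1* and *Bmpr2*, which hold the same core, did not. *Smad6*, which fell too, holds the paired Smad boxes and not that core, and *Id3*, which also fell, holds neither. The pair GTCTAGAC was added to the search after the data were seen. A link between these letters and the falls was not tested. The 30 bases around each match are shown with the match in capitals and the gene's own strand read 5′ to 3′.
Id2: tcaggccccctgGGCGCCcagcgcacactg
Bmpr1a: tgcgcgcgcgccGGCGCCtcttgctcgccc
Bmpr2: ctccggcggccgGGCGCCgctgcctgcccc
Tgfbr1: ggctggagtaaaGGCGCCcagcggtgaggg
Smad6: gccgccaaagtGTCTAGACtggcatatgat

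In GRCm39 these windows lie at chr12:25146305-25146334 on the minus strand for *Id2*, chr14:34224684-34224713 on the minus strand for *Bmpr1a*, chr1:59803321-59803350 on the plus strand for *Bmpr2*, chr4:47352977-47353006 on the plus strand for *Tgfbr1* and chr9:63929327-63929356 on the minus strand for *Smad6*. The matches of *Id2*, *Bmpr1a*, *Bmpr2* and *Smad6* fall in the 5′ untranslated region of the canonical GENCODE transcript, which starts further upstream than the RefSeq start used, and that of *Tgfbr1* falls outside all exons of the gene. Of the 4 genes that hold GGCGCC, *Id2* and *Bmpr1a* were lower in *Prep*-/- M0 and *Tgfbr1* and *Bmpr2* were not.

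Depth was even, with 19068237 to 22598279 counts per library. The label check held in every library, with *Prep* at 26.0 to 42.5 CPM in the 9 *Prep*+/- libraries and 1.48 to 3.22 CPM in the 9 *Prep*-/- libraries. Replicate 3 of *Prep*-/- M0 and replicate 3 of *Prep*-/- M2 stood apart from their groups. The chi-square per degree of freedom between their counts and those of the other 2 replicates was 111 to 120, against 9.87 to 49.1 for all other pairs of replicates. Counts without both libraries are therefore given beside those of the knockout and polarization comparisons. The summed level of 8 macrophage markers was 10027 to 48180 CPM over all libraries, and in M0 it was 19001 to 22408 CPM in *Prep*+/- and 30386 to 48180 CPM in *Prep*-/-. In M1 it was 45757 to 47208 against 31000 to 37042.5 CPM, and in M2 10027 to 12203 against 13889 to 19565 CPM. *Lyz2* made up most of the sum, with a median of 19551 CPM over all libraries beside 26397 CPM for the sum. In bulk RNA, fewer cells of a type and less RNA per cell cannot be told apart.

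Levels between genes were compared per kilobase of the canonical transcript in the *Prep*+/- M0 libraries. *Tgfb1*, the ligand, was highest at 140.0 ± 3.58 CPM per kb (SD, n = 3). *Id3* followed at 48.4 ± 11.4, *Id2* at 37.3 ± 6.08 and *Id1* at 23.4 ± 13 CPM per kb. The TGF-beta receptors *Tgfbr1* and *Tgfbr2* stood at 16.4 ± 0.347 and 12.5 ± 0.957 CPM per kb. *Bmpr2* stood at 3.23 ± 0.363, *Smad6* at 2.06 ± 1.03, *Smad7* at 0.901 ± 0.404 and *Bmpr1a* at 0.248 ± 0.0334 CPM per kb. The ranges of mean ± SD overlapped for *Id3* and *Id2*, for *Id2* and *Id1*, for *Id1* and both TGF-beta receptors, for *Bmpr2* and *Smad6*, and for *Smad6* and *Smad7*. The order of these neighbours is therefore not settled.

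**Figure D1:**
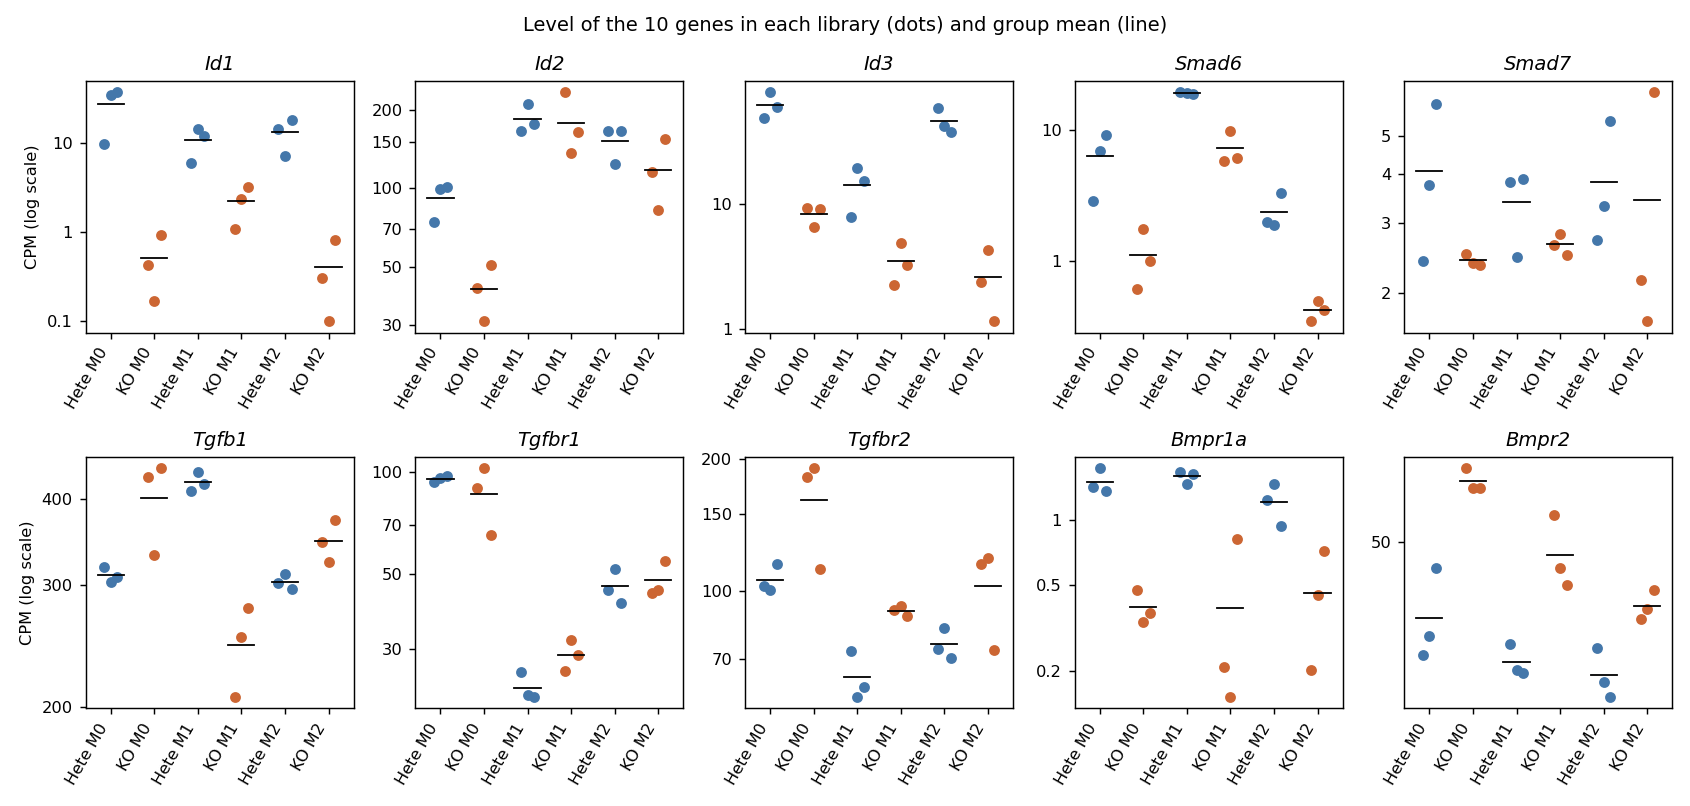
Each panel plots 1 gene, with CPM on a log axis for each of the 18 libraries (dots) in the 6 groups and the mean of each group (line). *Id1*, *Id3*, *Smad6* and *Bmpr1a* lay lower in all 3 *Prep*-/- libraries than in all 3 *Prep*+/- libraries of M0, M1 and M2, while *Id2* did so in M0 and not in M1 or M2.

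The first question was whether the other Id genes, the feedback Smads and the receptors follow *Id1* in the knockout. Differentially expressed genes (DEGs) had an adjusted p under 0.05 by edgeR's quasi-likelihood test, with Benjamini-Hochberg adjustment over all 12021 genes, and a fold change over 1.5. In M0, 4 of the 9 genes other than *Id1* were lower in *Prep*-/- (*Id2*, *Id3*, *Smad6* and *Bmpr1a*) and 1 was higher (*Tgfbr2*), with 17.2% of all genes lower and 15.4% higher. In M1, 4 were lower (*Id3*, *Smad6*, *Tgfb1* and *Bmpr1a*) and 0 were higher, with 10.2% of all genes lower and 12.3% higher. In M2, 3 were lower (*Id3*, *Smad6* and *Bmpr1a*) and 0 were higher, with 9.82% of all genes lower and 6.37% higher. The median log2 fold change of the 9 genes was -0.75 for M0, -0.35 for M1 and -0.15 for M2, beside 0.02, 0.04 and 0.03 over all genes tested. For the higher side, 3 genes had an unadjusted p under 0.05 in M1 and 2 did in M2, and DESeq2 also called 0 in both. Without replicate 3 of *Prep*-/- M0 and of *Prep*-/- M2, the counts in M0 and M1 were the same and 1 gene was higher and 5 were lower in M2. Calls over all genes rose as well. In M2, 1105 of 12123 genes were then higher and 1673 lower, against 766 and 1181 of 12021 in the full fit. In M0, 2017 were then higher and 2360 lower, and in M1 1602 and 1451.

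**Figure D2:**
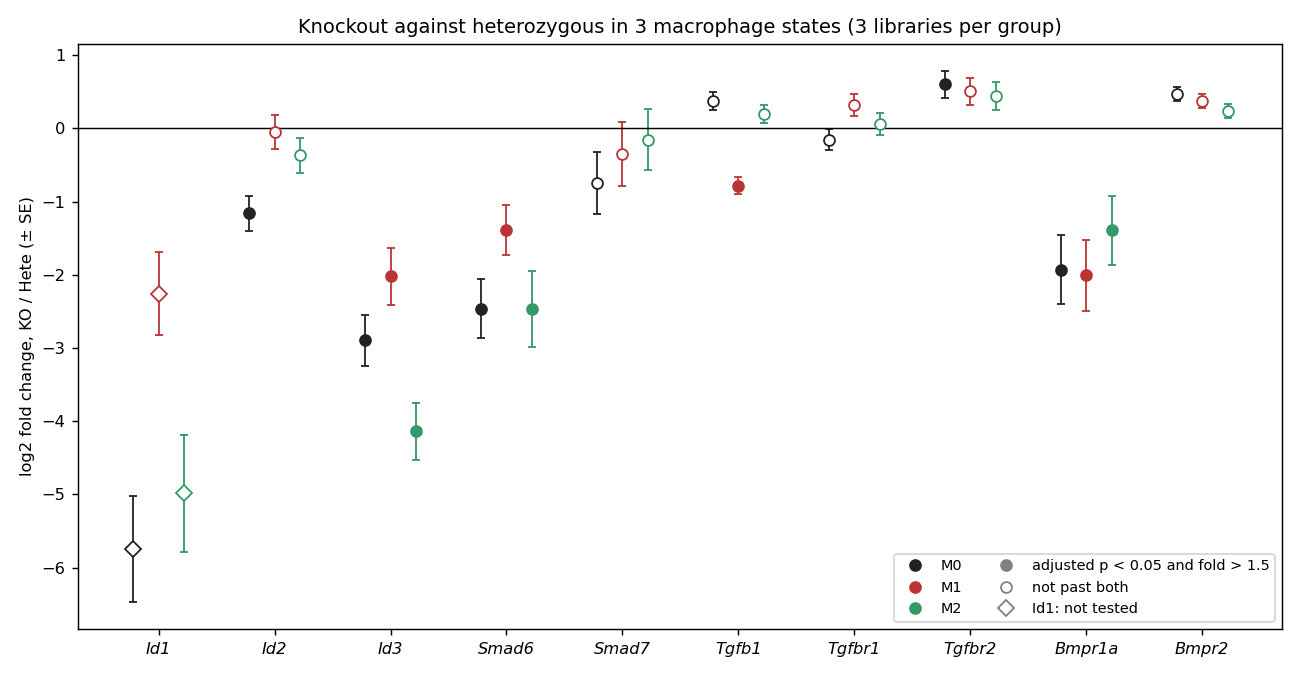
The log2 fold change of *Prep*-/- (KO) against *Prep*+/- (Hete) with its SE is drawn for each gene in M0, M1 and M2, with 3 libraries per group. Filled points passed both criteria for a DEG, open points did not, and the diamonds of *Id1* carry no test. *Id3*, *Smad6* and *Bmpr1a* are filled below 0 in all 3 states.

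*Id1*, a classic target gene of BMP signaling, lies at chr2:152566218-152579544 on the plus strand in GRCm39. In M0 its level was 9.80, 34.6 and 36.7 CPM in the *Prep*+/- libraries and 0.427, 0.167 and 0.923 CPM in the *Prep*-/- libraries. In M1 it was 5.92, 14.2 and 12.0 CPM against 1.09, 2.37 and 3.21 CPM, and in M2 14.3, 7.17 and 18.1 CPM against 0.302, 0.10 and 0.815 CPM. The genotypes did not overlap in any state, and the *Prep*-/- libraries of M0 and M2 held 2 to 20 counts each. Unstimulated cells had a log2 fold change of -5.75 ± 0.73 (SE), M1 cells of -2.26 ± 0.57 (SE) and M2 cells of -4.99 ± 0.80 (SE). Among all genes tested its fall ranked 5 for M0, 102 for M1 and 4 for M2. Without replicate 3 of *Prep*-/- M2, the value of *Id1* in M2 was -5.99.

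*Id3* was lower in *Prep*-/- in all 3 states, as *Id1* was. *Id3* is a close relative of *Id1* and is found at chr4:135870808-135873066 on the plus strand. Its level was 48.6, 77.5 and 59.5 CPM in *Prep*+/- M0 and 9.30, 6.53 and 9.14 CPM in *Prep*-/- M0. In M1 the values were 7.80, 19.2 and 15.2 CPM and 2.23, 4.89 and 3.26 CPM, and in M2 they were 58.1, 41.5 and 37.7 CPM and 2.36, 4.30 and 1.15 CPM. No *Prep*-/- library reached the lowest *Prep*+/- library of its state. *Id3* fell by 2.90 ± 0.35 (SE) on the log2 scale in M0 (adjusted p = 1.47e-05). Its log2 fold change was -2.02 ± 0.39 (SE) in M1 (adjusted p = 0.00123) and -4.14 ± 0.39 (SE) in M2 (adjusted p = 7.66e-06). Over 28 alternatives in each state the value lay between -3.03 and -2.72 in M0, between -2.36 and -1.73 in M1 and between -4.70 and -3.77 in M2, and the call was kept in every one.

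*Id2* was lower in *Prep*-/- in M0, and its knockout effect differed between M1 and M0. *Id2* is the Id gene best known for its part in lymphoid and dendritic cell development, and lies at chr12:25143798-25147282 on the minus strand. In M0 it stood at 74.7, 99.5 and 102 CPM in *Prep*+/- and at 41.5, 31.1 and 50.9 CPM in *Prep*-/-, so that all *Prep*-/- libraries were lower. In M1 it stood at 166, 209.9 and 176 CPM against 233, 136 and 164 CPM, and in M2 at 165, 124 and 166 CPM against 116, 82.9 and 154 CPM, with overlap in both states. *Id2* fell by 1.16 ± 0.24 (SE) on the log2 scale in M0 (adjusted p = 0.000856). Its value was -0.05 ± 0.23 (SE) in M1 (adjusted p = 0.881) with a 95% interval of -0.55 to 0.44, and -0.37 ± 0.23 (SE) in M2 (adjusted p = 0.272) with an interval of -0.86 to 0.13. With the replicate numbers added to the edgeR model as a block, the value in M2 was -0.385 over all 18 libraries (adjusted p = 0.212). In the 6 libraries of M2 alone the blocked value was -0.402 (adjusted p = 0.0447), under the fold criterion. The interval in M1 leaves out a fall of the size seen in M0.

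The difference of the knockout effect between M1 and M0 was tested itself, as an interaction. For *Id2* it was 1.11 ± 0.33 (SE) on the log2 scale, less of a fall in M1, with an adjusted p of 0.0236 by edgeR. This call was lost when any 1 of 6 libraries was left out, replicate 2 or 3 of *Prep*+/- M0, replicate 1 or 3 of *Prep*+/- M1, replicate 2 of *Prep*-/- M0 or replicate 1 of *Prep*-/- M1, with values of 0.847 to 1.06 and adjusted p of 0.0517 to 0.0764. The difference between M2 and M0 was 0.79 ± 0.33 (SE) (adjusted p = 0.146). For *Id3* the differences were 0.88 ± 0.52 (SE) in M1 and -1.24 ± 0.53 (SE) in M2 (adjusted p = 0.235 and 0.148). Without replicate 2 of *Prep*-/- M2, the difference of *Id3* in M2 was -1.80 with an adjusted p of 0.0365.

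Markers of other cell types were read beside the Id genes, since endothelial and stromal cells also express them. The sum of 5 endothelial markers was 4.83 to 8.70 CPM in *Prep*+/- M0 and 3.35 to 6.40 CPM in *Prep*-/- M0, 13 to 15.5 against 14.4 to 30.7 CPM in M1, and 11.7 to 15.7 against 5.32 to 8.65 CPM in M2. Of these markers, *Kdr* reached at most 26.2 CPM, *Pecam1* 11.8 CPM, *Cdh5* 1.80 CPM, *Egfl7* 1.28 CPM and *Tek* 0.102 CPM. The sum of 7 stromal markers was 12.9 to 15.8 CPM in *Prep*+/- M0 and 0.784 to 18.5 CPM in *Prep*-/- M0, 19.1 to 21.8 against 6.21 to 18.1 CPM in M1, and 0.377 to 14.5 against 1.46 to 6.28 CPM in M2. None of these markers was at 0 in all libraries. *Mki67*, a gene of dividing cells that was picked after its values were seen, stood at 469 to 558 CPM in *Prep*+/- M0 and 103 to 238 CPM in *Prep*-/- M0, 49.4 to 60.5 against 40.1 to 55.3 CPM in M1, and 332 to 382 against 90.1 to 193 CPM in M2. *Top2a*, another such gene picked in the same way, stood at 405 to 469 against 52.9 to 150 CPM in M0. It stood at 41.6 to 46.5 against 17.6 to 27.3 CPM in M1, and 239 to 274 against 47.3 to 108 CPM in M2. The part of these cells and of cell division in the Id values was not tested.

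Genes most like each Id gene were sought by Pearson's r of log2 CPM over the 18 libraries, among 9600 genes with a mean of at least 5 CPM. These values describe libraries that share their groups and carry no p. For *Id1* they were *Hells* (0.954), *Ccne2* (0.951), *Sf3a3* (0.950), *Cdkn2aipnl* (0.949) and *Nxt1* (0.934). *Hells* is a chromatin remodeler of dividing cells and *Ccne2* is a cyclin of the entry into DNA replication. For *Id3* they were *Got2* (0.922), *Tk1* (0.921), which makes thymidine monophosphate for DNA synthesis, and the DNA ligase *Lig1* (0.920). For *Id2* they were *Ifrd1* (0.965), *Esd* (0.964) and the chaperone *Dnaja1* (0.957). Within groups, after each group's mean was taken out, r with *Id1* was 0.619 for *Hells* and ranged from 0.456 (*Sf3a3*) to 0.767 (*Nxt1*). With *Id2* it ranged from 0.769 (*Ifrd1*) to 0.859 (*Esd*). With *Id3* it was 0.662 for *Got2*, 0.253 for *Tk1* and -0.04 for *Lig1*.

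Among the inhibitory Smads, *Smad6* fell in all 3 states, as *Id3* did, and *Smad7* did not pass the test. *Smad6* acts chiefly on BMP receptors, and lies at chr9:63860341-63929793 on the minus strand. Its level was 2.87, 6.91 and 9.10 CPM in *Prep*+/- M0 and 0.617, 1.76 and 1.02 CPM in *Prep*-/- M0. In M1 it was 19.3, 19.2 and 18.7 CPM against 5.82, 9.78 and 6.16 CPM, and in M2 2.0, 1.89 and 3.30 CPM against 0.352, 0.50 and 0.431 CPM. All *Prep*-/- libraries lay below all *Prep*+/- libraries in each state, and those of M2 held 7 to 10 counts. *Smad6* fell by 2.46 ± 0.40 (SE) on the log2 scale in M0 (adjusted p = 0.000116), by 1.39 ± 0.34 (SE) in M1 (adjusted p = 0.00595) and by 2.47 ± 0.52 (SE) in M2 (adjusted p = 0.00144). Testing against a fold change of 1.5 itself, with edgeR's glmTreat, ended the call in M1 (adjusted p = 0.0711).

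*Smad7*, which acts on receptors of both branches, lies at chr18:75500374-75529006 on the plus strand and was low in every group. In M0 it stood at 2.42, 3.75 and 6.01 CPM in *Prep*+/- and 2.51, 2.39 and 2.35 CPM in *Prep*-/-. In M1 it stood at 3.82, 2.47 and 3.88 CPM against 2.65, 2.82 and 2.49 CPM, and in M2 at 2.73, 3.31 and 5.44 CPM against 2.16, 1.70 and 6.42 CPM. The genotypes overlapped in all 3 states. The log2 fold changes were -0.75 ± 0.42 (SE) in M0, -0.35 ± 0.43 (SE) in M1 and -0.15 ± 0.42 (SE) in M2 (adjusted p = 0.153, 0.546 and 0.828). Replicate 3 of *Prep*-/- M2 was the highest of all 18 libraries. Without it, the value in M2 was -0.97 with an adjusted p of 0.0494, and that in M0 was -0.75 with an adjusted p of 0.0492. The 95% intervals were -1.64 to 0.14 in M0, -1.27 to 0.56 in M1 and -1.03 to 0.73 in M2, and that in M0 holds a fall of the size *Id2* had there.

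Of the BMP receptors, *Bmpr1a* was lower in *Prep*-/- and *Bmpr2* was slightly higher. *Bmpr1a* is a type I BMP receptor and lies at chr14:34132687-34225379 on the minus strand. It was near the detection limit, at 1.41, 1.74 and 1.36 CPM in *Prep*+/- M0 and 0.474, 0.335 and 0.369 CPM in *Prep*-/- M0. In M1 the levels were 1.67, 1.46 and 1.64 CPM and 0.208, 0.151 and 0.814 CPM, and in M2 1.24, 1.47 and 0.936 CPM and 0.201, 0.450 and 0.719 CPM. The *Prep*-/- libraries held 3 to 16 counts each and the *Prep*+/- libraries 21 to 44 counts, without overlap within a state. *Bmpr1a* fell by 1.93 ± 0.47 (SE) on the log2 scale in M0 (adjusted p = 0.00249), by 2.0 ± 0.49 (SE) in M1 (adjusted p = 0.00436) and by 1.39 ± 0.47 (SE) in M2 (adjusted p = 0.0362). In M2 the replicate numbers paired the libraries, and with the replicate block over all 18 libraries the call was kept (-1.43, adjusted p = 0.0374). In the 6 libraries of M2 alone it was lost both without the block (-1.39, adjusted p = 0.0665) and with it (-1.43, adjusted p = 0.0733). The call in M2 was also lost without replicate 1 or 2 of *Prep*+/- M2 or replicate 1 or 2 of *Prep*-/- M2, with values of -1.38 to -1.05 and adjusted p of 0.0826 to 0.149.

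*Bmpr2* is the type II BMP receptor and lies at chr1:59802544-59918173 on the plus strand. It stood at 38.1, 39.9 and 47.0 CPM in *Prep*+/- M0 and 59.6, 56.9 and 56.8 CPM in *Prep*-/- M0. In M1 it stood at 39.1, 36.8 and 36.5 CPM against 53.3, 47.0 and 45.1 CPM, and in M2 at 38.7, 35.7 and 34.5 CPM against 41.6, 42.6 and 44.5 CPM. All *Prep*-/- libraries were higher in each state, opposite to *Bmpr1a*, though by under 1.5-fold. The log2 fold change was 0.47 ± 0.10 (SE) in M0 (adjusted p = 0.000761), 0.37 ± 0.10 (SE) in M1 (adjusted p = 0.00766) and 0.24 ± 0.10 (SE) in M2 (adjusted p = 0.0799).

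The TGF-beta ligand was a lower DEG in *Prep*-/- M1. Its receptor *Tgfbr2* was a higher DEG in *Prep*-/- M0, with values above 0 in M1 and M2 too. *Tgfb1* encodes the main TGF-beta of immune cells and lies at chr7:25386390-25404506 on the plus strand. In M1 it was 411, 438 and 419.8 CPM in *Prep*+/- and 207, 252 and 279 CPM in *Prep*-/-, lower in all *Prep*-/- libraries. In M0 it was 318, 303 and 309 CPM against 429.9, 332 and 443 CPM, and in M2 303, 311 and 296 CPM against 347, 325 and 372 CPM, higher in all *Prep*-/- libraries of both states. *Tgfb1* fell by 0.78 ± 0.12 (SE) on the log2 scale in M1 (adjusted p = 0.000251), a call lost with glmTreat (adjusted p = 0.164). Its value was 0.37 ± 0.12 (SE) in M0 (adjusted p = 0.0160), under the fold criterion, and 0.20 ± 0.12 (SE) in M2 (adjusted p = 0.245). The difference between the effects in M1 and M0 was -1.15 ± 0.17 (SE) on the log2 scale (adjusted p = 0.000210) and kept its call in 24 of 24 alternatives. *Id2* and *Tgfb1* were the 2 of 9 genes with such a difference in M1, beside 24.6% of all genes. In M2, 0 of 9 had one by edgeR or by DESeq2, 2 had an unadjusted p under 0.05 (*Id2* and *Id3*), and 9.64% of all genes had one.

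*Tgfbr1*, the type I TGF-beta receptor, lies at chr4:47353134-47414931 on the plus strand and did not pass the test in any state, though all *Prep*-/- libraries were higher in M1. Its level was 93.7, 96.5 and 97.6 CPM in *Prep*+/- M0 and 89.9, 103 and 65.4 CPM in *Prep*-/- M0. In M1 it was 25.7, 21.9 and 21.7 CPM against 25.9, 32.0 and 28.7 CPM, and in M2 44.9, 52.0 and 41.1 CPM against 44.0, 45.0 and 54.8 CPM. The log2 fold changes were -0.16 ± 0.15 (SE), 0.32 ± 0.15 (SE) and 0.06 ± 0.15 (SE) in M0, M1 and M2 (adjusted p = 0.396, 0.104 and 0.811). The 95% intervals in M0 and M2, -0.46 to 0.15 and -0.25 to 0.37, leave out a change of 1.5-fold, which is 0.58 on this scale.

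*Tgfbr2*, the type II TGF-beta receptor, lies at chr9:115913361-116004800 on the minus strand. In M0 it stood at 103, 101 and 116 CPM in *Prep*+/- and 182, 191 and 112 CPM in *Prep*-/-, where replicate 3 overlapped the controls and the others did not. In M1 it stood at 73.0, 57.3 and 60.3 CPM against 90.3, 92.5 and 87.8 CPM, and in M2 at 73.6, 82.5 and 70.5 CPM against 115, 119 and 73.5 CPM, where replicate 3 again overlapped. *Tgfbr2* rose by 0.61 ± 0.19 (SE) on the log2 scale in M0 (adjusted p = 0.0133), a fold change of 1.52 that barely passed. Its value was 0.51 ± 0.19 (SE) in M1 (adjusted p = 0.0450), under the fold criterion, and 0.44 ± 0.19 (SE) in M2 (adjusted p = 0.0948). In M1 all *Prep*-/- libraries were higher. The effect was not shown to differ from that in M0, with interactions of -0.10 ± 0.26 (SE) for M1 and -0.16 ± 0.26 (SE) for M2 (adjusted p = 0.806 and 0.739).

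The calls of *Tgfbr2* depended on the libraries used. Without replicate 3 of *Prep*-/- M0 and of *Prep*-/- M2, its values were 0.80 in M0 (adjusted p = 6.06e-06) and 0.65 in M2 (adjusted p = 0.000119), both past the fold criterion. The call in M0 was lost without replicate 2 of *Prep*+/- M0 (0.54), replicate 2 of *Prep*+/- M2 (0.58), replicate 1 of *Prep*-/- M0 (0.51) or replicate 2 of *Prep*-/- M0 (0.47). A call in M1 appeared without replicate 1 of *Prep*+/- M1 (0.60, adjusted p = 0.0377). *Id2* gained a call in M2 when both replicates 3 were left out (-0.60, adjusted p = 0.0396).

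The second question was how polarization moved these genes in each genotype. M1 and M2 were each set against M0, so both comparisons of a genotype share its M0 libraries. In M1 of *Prep*+/-, 2 of 9 genes were higher (*Id2* and *Smad6*), beside 16.7% of all genes, and 3 were lower (*Id3*, *Tgfbr1* and *Tgfbr2*), beside 20.9%. In M1 of *Prep*-/-, 2 were higher (the same genes, *Id2* and *Smad6*), beside 20.9% of all genes, and 4 were lower (*Id3*, *Tgfb1*, *Tgfbr1* and *Tgfbr2*), beside 21.0%. In M2 of *Prep*+/-, 1 was higher (*Id2*), beside 6.09% of all genes, and 2 were lower (*Smad6* and *Tgfbr1*), beside 6.77%. In M2 of *Prep*-/-, 1 was higher (*Id2*), beside 14.7% of all genes, and 4 were lower (*Id3*, *Smad6*, *Tgfbr1* and *Tgfbr2*), beside 15.5%. Without replicate 3 of *Prep*-/- M0 and of *Prep*-/- M2, these counts were the same except in M2 of *Prep*-/-, where 3 were lower and *Smad6* lost its call (-1.50, adjusted p = 0.113).

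**Figure D3:**
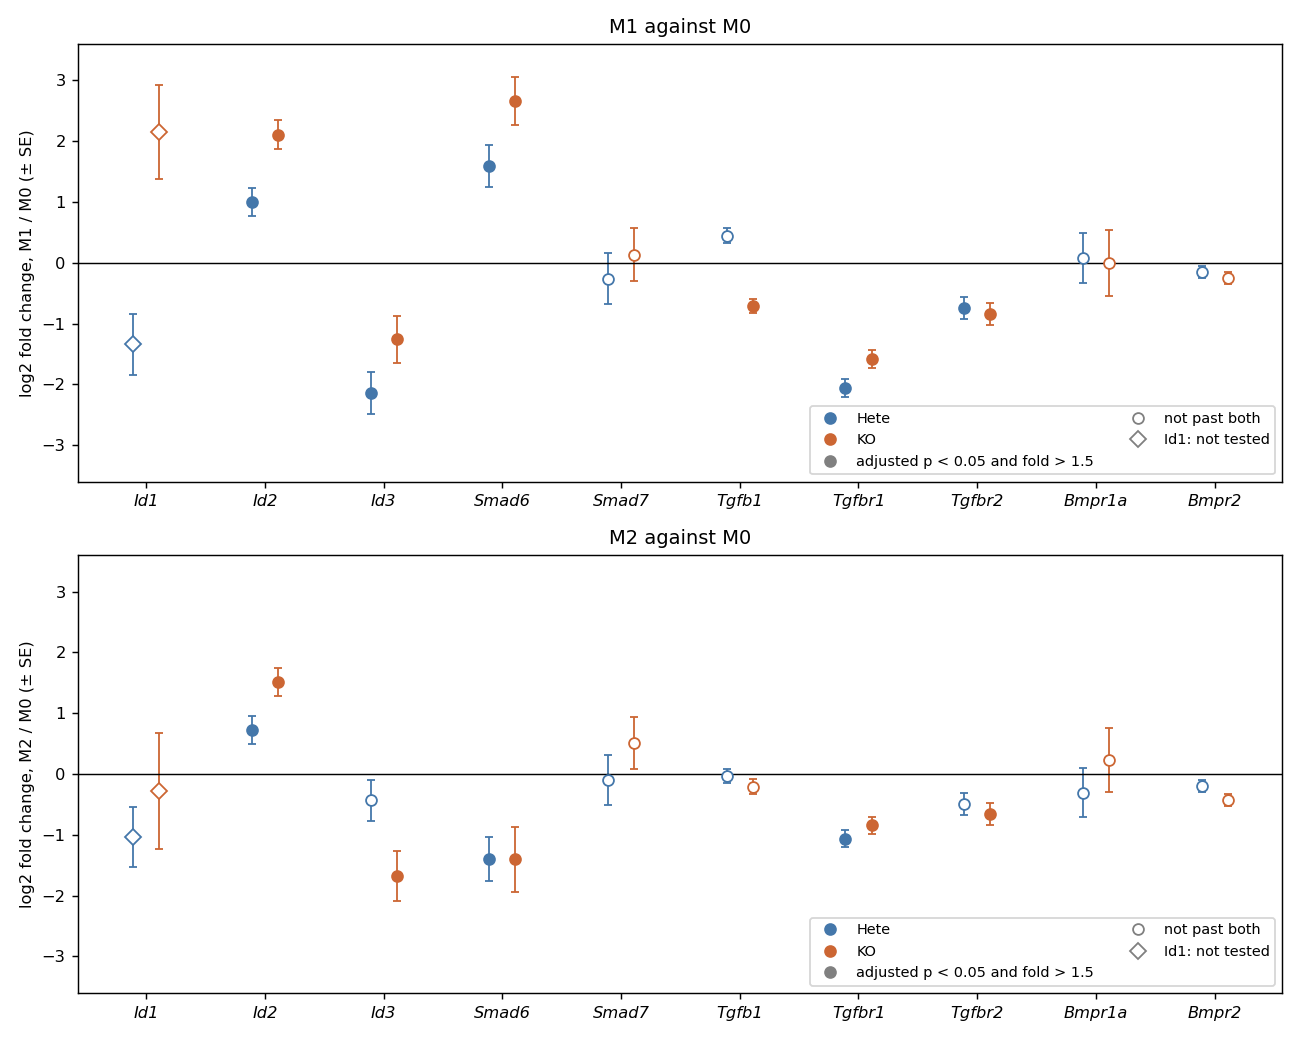
The log2 fold change of M1 (top) and M2 (bottom) against M0 is drawn with its SE for each gene in *Prep*+/- (Hete) and *Prep*-/- (KO), with 3 libraries per group, filled where both criteria for a DEG were met. *Smad6* lies above 0 in M1 and below 0 in M2 in both genotypes, and *Tgfb1* lies on opposite sides of 0 in M1.

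*Smad6* moved in opposite directions after LPS and after IL-4 with IL-13. It rose in M1 by 1.59 ± 0.34 (SE) on the log2 scale in *Prep*+/- (adjusted p = 0.00101) and by 2.66 ± 0.40 (SE) in *Prep*-/- (adjusted p = 3.02e-05). In M2 its log2 fold change was -1.40 ± 0.37 (SE) in *Prep*+/- (adjusted p = 0.0131), with overlap, and -1.40 ± 0.54 (SE) in *Prep*-/- (adjusted p = 0.0381). The calls in M2 were not firm. That in *Prep*+/- was lost without replicate 3 of *Prep*+/- M0 (-1.04) or replicate 1 or 2 of *Prep*+/- M2 (-1.31 and -1.25). That in *Prep*-/- was lost without replicate 2 or 3 of *Prep*-/- M0 (-0.95 and -1.49) or any 1 replicate of *Prep*-/- M2 (-1.55 to -1.32). The interaction of *Smad6* with the state was 1.07 ± 0.53 (SE) for M1 (adjusted p = 0.144) and -0.01 ± 0.65 (SE) for M2 (adjusted p = 0.992). It passed the test in M1 without replicate 1 of *Prep*+/- M0 (1.39, adjusted p = 0.0303) or replicate 2 of *Prep*-/- M0 (1.53, adjusted p = 0.0486).

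*Id2* rose in both polarized states of both genotypes, while *Id3* fell in 3 of the 4 comparisons. *Id2* rose in M1 by 1.0 ± 0.23 (SE) in *Prep*+/- (adjusted p = 0.00195) and by 2.11 ± 0.24 (SE) in *Prep*-/- (adjusted p = 2.04e-06). In M2 it rose by 0.72 ± 0.23 (SE) (adjusted p = 0.0414) and 1.51 ± 0.24 (SE) (adjusted p = 9.64e-05). The rise in M2 of *Prep*+/- was lost in 10 of 18 fits that left out 1 library, with values of 0.58 to 0.80 and adjusted p of up to 0.167. These were the fits without any 1 library of *Prep*+/- M0 or of *Prep*+/- M1, replicate 1 or 3 of *Prep*+/- M2, replicate 3 of *Prep*-/- M1 or replicate 1 of *Prep*-/- M2. *Id3* fell in M1 by 2.14 ± 0.35 (SE) in *Prep*+/- (adjusted p = 9.35e-05) and by 1.26 ± 0.39 (SE) in *Prep*-/- (adjusted p = 0.0118). Without replicate 1 of *Prep*-/- M1 the latter was -1.07 (adjusted p = 0.0510). In M2, *Id3* had a value of -0.43 ± 0.34 (SE) in *Prep*+/- (adjusted p = 0.413) and fell by 1.68 ± 0.41 (SE) in *Prep*-/- (adjusted p = 0.00306).

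*Id1*, given as a description, was lower in M1 than in M0 of *Prep*+/-, at 10.7 ± 4.27 CPM (SD, n = 3) against 27.0 ± 15 CPM (SD, n = 3), with overlap. In *Prep*-/- it was higher in M1, at 2.22 ± 1.06 CPM (SD, n = 3) against 0.506 ± 0.384 CPM (SD, n = 3), without overlap. The log2 fold changes were -1.34 ± 0.50 (SE) and 2.15 ± 0.77 (SE). In M2 they were -1.04 ± 0.50 (SE) in *Prep*+/- and -0.28 ± 0.96 (SE) in *Prep*-/-, the latter turning sign without replicate 3 of *Prep*-/- M0 (0.48) or replicate 2 of *Prep*-/- M2 (0.15).

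*Tgfbr1* fell in both polarized states of both genotypes, and *Tgfbr2* fell in 3 of these 4 comparisons. The polarized libraries of *Tgfbr1* lay below all M0 libraries of their genotype. It fell by 2.05 ± 0.15 (SE) and 1.06 ± 0.15 (SE) on the log2 scale in *Prep*+/- (adjusted p = 1.65e-08 and 6.90e-05), and by 1.57 ± 0.15 (SE) and 0.84 ± 0.15 (SE) in *Prep*-/- (adjusted p = 2.47e-07 and 0.000220). Its interaction with M1 was 0.48 ± 0.21 (SE) (adjusted p = 0.105), and 0.62 (adjusted p = 0.0244) without replicate 2 of *Prep*-/- M0. *Tgfbr2* fell in M1 by 0.74 ± 0.19 (SE) in *Prep*+/- (adjusted p = 0.00326) and by 0.84 ± 0.19 (SE) in *Prep*-/- (adjusted p = 0.00109). In M2 its values were -0.49 ± 0.19 (SE) in *Prep*+/- (adjusted p = 0.0788) and -0.66 ± 0.19 (SE) in *Prep*-/- (adjusted p = 0.00908). The latter no longer passed the fold criterion without replicate 1 (-0.56) or 2 (-0.53) of *Prep*-/- M0 or replicate 3 of *Prep*-/- M2 (-0.47).

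LPS moved *Tgfb1* to opposite sides of its M0 level in the genotypes, without overlap in either. In *Prep*-/- it fell by 0.71 ± 0.12 (SE) on the log2 scale from M0 to M1 (adjusted p = 9.31e-05), while in *Prep*+/- its value was 0.45 ± 0.12 (SE) (adjusted p = 0.00456), under the fold criterion. In M2 its values were -0.03 ± 0.12 (SE) and -0.21 ± 0.12 (SE) (adjusted p = 0.889 and 0.173). *Bmpr2* had an adjusted p under 0.05 in *Prep*-/- alone without reaching the fold criterion, with -0.25 ± 0.10 (SE) in M1 and -0.43 ± 0.10 (SE) in M2 (adjusted p = 0.0319 and 0.00169), but the difference between the genotypes did not pass the test (-0.10 ± 0.14 (SE) and -0.23 ± 0.14 (SE), adjusted p = 0.620 and 0.297). In M1 of *Prep*-/- the replicate numbers paired the libraries. There the block gave *Bmpr2* a value of -0.254 over all 18 libraries (adjusted p = 0.0399) and -0.296 in the 6 libraries alone (adjusted p = 0.0848). *Smad7* and *Bmpr1a* did not pass the test in any of the 4 polarization comparisons.

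The wider pathway was read from lists of 90 other genes by role, of which 84 were in the table and 55 were tested. In M0, 10 of these 55 were higher in *Prep*-/- and 13 lower, beside 15.4% and 17.2% of all genes. In M1, 9 were higher and 9 lower, beside 12.3% and 10.2%. In M2, 7 were higher and 5 lower, beside 6.37% and 9.82%. The lists by role held 4 to 12 tested genes each, so that a single gene moves the share of a list by much. The medians of the 55 log2 fold changes were -0.02 for M0, 0.00 for M1 and 0.00 for M2. Without replicate 3 of *Prep*-/- M0 and of *Prep*-/- M2, 4 were higher and 8 lower in M2, beside 1105 and 1673 of 12123 genes tested. Leaving out replicate 1 of *Prep*-/- M1 gave 5 lower in M1, and leaving out replicate 1 or 2 of *Prep*+/- M2, or replicate 3 of *Prep*-/- M2, gave 4 higher in M2.

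**Figure D4:**
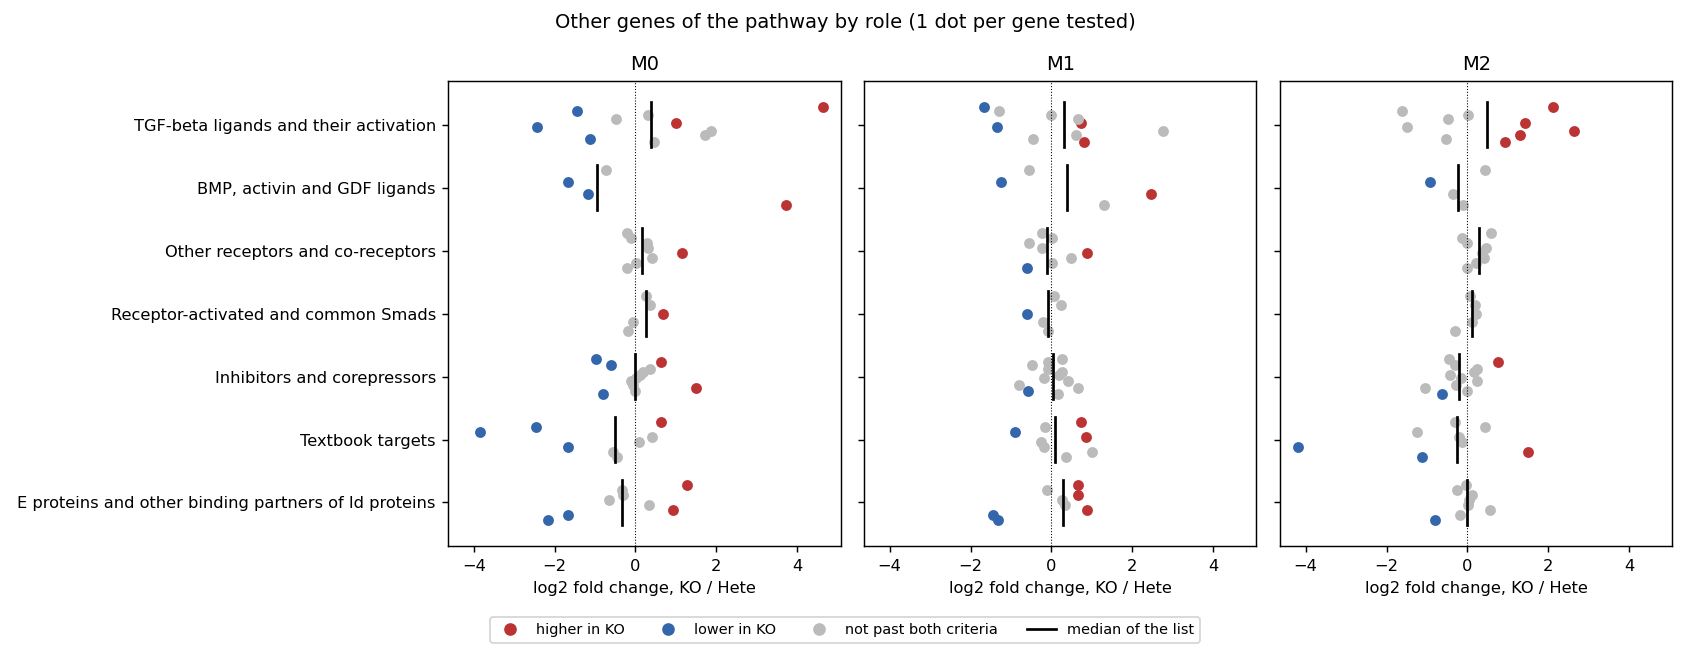
Each dot is 1 tested gene of a list, placed by its log2 fold change of *Prep*-/- (KO) against *Prep*+/- (Hete) in M0, M1 and M2, with the list median as a bar. Red dots were higher DEGs and blue dots lower DEGs, and all 7 lists hold both colors over the 3 states.

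Among 10 tested genes of TGF-beta release and activation, 2 were higher and 3 lower for M0 (15.4% and 17.2% of all genes), 2 and 2 for M1 (12.3% and 10.2%), and 5 and 0 for M2 (6.37% and 9.82%). *Thbs1*, a matrix protein that activates latent TGF-beta, turned its direction between states. It rose in M0 from 10.9, 5.25 and 11.7 CPM to 347, 206 and 140.0 CPM, by 4.63 ± 0.30 (SE) on the log2 scale (adjusted p = 1.57e-07). In M1 it fell from 815, 749 and 772 CPM to 236, 200.1 and 302 CPM, by 1.66 ± 0.28 (SE) (adjusted p = 0.000586). The difference between these effects was -6.30 (adjusted p = 5.98e-07). In M2 *Thbs1* was a higher DEG, with a log2 fold change of 2.11. *Furin*, a protease that cleaves the TGF-beta precursor, rose in M1 by 0.81 ± 0.16 (SE) (adjusted p = 0.00137). *Ltbp2*, of the latent TGF-beta binding proteins, fell in M0 from 0.912, 2.13 and 1.12 CPM to 0.0949, 0.419 and 0.231 CPM (adjusted p = 0.000481). *Lrrc32*, which holds latent TGF-beta on the cell surface, rose in M2 from 1.83, 2.22 and 10.4 CPM to 11.5, 5.95 and 72.0 CPM (adjusted p = 0.0338), with overlap. Without replicate 3 of *Prep*-/- M2 its log2 fold change was 0.88 (adjusted p = 0.344), without replicate 1 or 2 of *Prep*+/- M2 the adjusted p was 0.125 and 0.124, and DESeq2 gave 0.228.

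Of 4 tested BMP, activin and GDF ligands, 1 was higher and 2 lower for M0, 1 and 1 for M1, and 0 and 1 for M2, beside the same shares of all genes. *Gdf3*, a ligand of the TGF-beta superfamily, fell in all 3 states, by 1.67 ± 0.20 (SE), 1.25 ± 0.21 (SE) and 0.93 ± 0.20 (SE) on the log2 scale (adjusted p = 1.01e-05, 0.000506 and 0.00296). *Gdf15*, a stress-induced cytokine, rose in M1 from 12.1, 15.3 and 12.4 CPM to 89.8, 59.9 and 68.6 CPM, by 2.46 ± 0.28 (SE) (adjusted p = 3.90e-05), and fell in M0 by 1.16 ± 0.27 (SE) (adjusted p = 0.00249). Among 8 other receptors and co-receptors, 1 was higher and 0 lower for M0 (15.4% and 17.2% of all genes). The counts were 1 and 1 for M1 (12.3% and 10.2%), and 0 and 0 for M2 (6.37% and 9.82%). *Acvr2b*, a type II activin receptor, rose by 1.15 ± 0.24 (SE) in M0 (adjusted p = 0.000965) and by 0.89 ± 0.29 (SE) in M1 (adjusted p = 0.0247). The latter was lost without replicate 3 of *Prep*+/- M1 (0.63) or replicate 2 of *Prep*-/- M1 (0.79). *Acvr1*, a type I receptor for BMPs, fell by 0.60 ± 0.20 (SE) in M1 (adjusted p = 0.0282), a call lost without replicate 1 of *Prep*+/- M1 (-0.53) or replicate 1 or 2 of *Prep*-/- M1 (-0.57 and -0.59).

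Of 5 tested signal-carrying Smads, 1 was higher and 0 lower for M0 (15.4% and 17.2% of all genes). The counts were 0 and 1 for M1 (12.3% and 10.2%), and 0 and 0 for M2 (6.37% and 9.82%). The gene called both times was *Smad3*, the Smad of the TGF-beta branch, which rose in M0 from 8.39, 9.04 and 8.62 CPM to 15.1, 13.9 and 12.6 CPM (adjusted p = 0.000451) and fell in M1 from 19, 16.5 and 19.8 CPM to 11.1, 12.7 and 12.6 CPM (adjusted p = 0.00215). The value in M1 was -0.60 ± 0.13 (SE) and no longer passed the fold criterion without replicate 3 of *Prep*+/- M1 or replicate 1 of *Prep*-/- M1 (-0.56 in both). Of 12 tested inhibitors and corepressors, 2 were higher and 3 lower for M0 (15.4% and 17.2% of all genes), 0 and 1 for M1 (12.3% and 10.2%), and 1 and 1 for M2 (6.37% and 9.82%). *Twsg1*, which binds BMPs outside the cell, fell in M0 by 0.98 ± 0.11 (SE) (adjusted p = 5.27e-06). *Fstl3*, which binds activins, rose in M0 by 1.49 ± 0.48 (SE) (adjusted p = 0.0176), a call lost without replicate 3 of *Prep*+/- M0 (1.16) or of *Prep*-/- M0 (1.24). *Tgif1*, a corepressor of *Smad2* and *Smad3*, rose in M2 by 0.77 ± 0.17 (SE) (adjusted p = 0.00331), and without replicate 3 of *Prep*-/- M2 it was under the fold criterion at 0.55. *Tgif1* was also a higher DEG in M0 (0.63).

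*Bambi*, a receptor without a kinase, fell in M2 by 0.63 ± 0.18 (SE) (adjusted p = 0.0203). *Fkbp1a*, which binds type I receptors, fell in M1 by 0.59 ± 0.21 (SE) (adjusted p = 0.0368). Neither call was firm. That of *Bambi* was lost without replicate 1 or 3 of *Prep*+/- M2 (-0.64 and -0.59) or replicate 1 or 2 of *Prep*-/- M2 (-0.60 and -0.50), and that of *Fkbp1a* without replicate 2 or 3 of *Prep*+/- M1 (-0.51 and -0.59) or replicate 1 or 2 of *Prep*-/- M1 (-0.49 and -0.62). *Bambi* was also a lower DEG in M0 (-0.81).

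Of 8 tested textbook targets of the pathway, 1 was higher and 3 lower for M0 (15.4% and 17.2% of all genes), 2 and 1 for M1 (12.3% and 10.2%), and 1 and 2 for M2 (6.37% and 9.82%). *Runx3*, a transcription factor induced by TGF-beta, fell in M0 from 2.23, 3.99 and 3.73 CPM to 0.142, 0.377 and 0.138 CPM, by 3.86 ± 0.53 (SE) on the log2 scale (adjusted p = 1.00e-05). In M1 it fell by 0.89 ± 0.33 (SE) (adjusted p = 0.0467), a call lost without any 1 library of M1 and without replicate 2 or 3 of *Prep*+/- M0 or replicate 3 of *Prep*+/- M2 (adjusted p up to 0.130). *Tgfbi*, a matrix protein named for its induction by TGF-beta, rose in M0 by 0.62 ± 0.14 (SE) (adjusted p = 0.00210), and was just under the fold criterion without replicate 2 of *Prep*-/- M0 (0.58). *Klf10*, an early TGF-beta target, rose in M1 by 0.86 ± 0.19 (SE) (adjusted p = 0.00325). *Cx3cr1*, the fractalkine receptor, was near 0 in M2, at 0.554, 0.419 and 0.223 CPM in *Prep*+/- and 0, 0 and 0.0479 CPM in *Prep*-/- (adjusted p = 0.00731). It was a lower DEG in M0 as well (-1.68). *Cdkn2b*, a cell cycle inhibitor, had 0.938, 0.797 and 1.65 CPM against 1.76, 1.0 and 6.85 CPM in M2, and its adjusted p of 0.0478 became 0.592 without replicate 3 of *Prep*-/- M2 and was over 0.05 in 14 of 18 fits that left out 1 library, all but those without replicate 3 of *Prep*+/- M2, replicate 3 of *Prep*-/- M0, or replicate 1 or 2 of *Prep*-/- M2. With the replicate block the adjusted p was 0.0293 over all 18 libraries. In the 6 libraries of M2 alone it was 0.175 without the block and 0.0653 with it.

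The binding partners of Id proteins closed the lists, with 2 of 8 higher and 2 lower for M0 (15.4% and 17.2% of all genes), 3 and 2 for M1 (12.3% and 10.2%), and 0 and 1 for M2 (6.37% and 9.82%). *Tcf4*, an E protein, rose in M0 from 56.2, 50.7 and 54.5 CPM to 127, 116 and 148 CPM, by 1.28 ± 0.14 (SE) (adjusted p = 6.04e-06). It was a higher DEG in M1 too (0.65). *Lyl1*, a basic helix-loop-helix factor of blood cells, rose in M1 by 0.88 ± 0.17 (SE) (adjusted p = 0.00108). The ETS factor *Ets1* fell by 2.15 ± 0.20 (SE) in M0 (adjusted p = 1.19e-06) and by 0.81 ± 0.18 (SE) in M2 (adjusted p = 0.00430). It was also a lower DEG in M1, with a log2 fold change of -1.32. Its relative *Ets2* fell in M1 from 274, 258 and 269 CPM to 77.6, 105 and 111 CPM, by 1.45 ± 0.39 (SE) (adjusted p = 0.0112), and its adjusted p was 0.0550 without replicate 1 of *Prep*-/- M1.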

How the data were processed

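RNA was sequenced from *Prep*+/- and *Prep*-/- BMDMs in M0, M1 and M2, with 3 replicates per group. Per the labels, poly(A) libraries were made with a stranded kit and read as paired ends. The submitters' processing notes name Trimmomatic 0.36, HISAT2 2.2.1.0 and GRCm39. The authors deposited raw counts per gene symbol. The annotation release, the strand setting and the treatment of reads that match several places are not given in the sources used here. *Id1*, *Id2*, *Id3*, *Tgfbr1*, *Tgfbr2*, *Bmpr1a* and *Bmpr2* overlap a gene on the opposite strand in GENCODE vM39. *Bmpr2* also overlaps genes on its own strand, *Gm38125* among them, and *Id2* has a near-copy, *Gm6175*. The counts of these members may therefore hold reads of those genes.

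The members and gene lists were chosen with earlier results of these data known. Counts were fitted in edgeR 4.0.16 (R 4.3.3) with TMM scaling, filterByExpr and glmQLFTest over all 18 libraries, with 1 coefficient per group. SEs come from the same model. The intervals and counts cover the spread between these replicates only. Genes named from the pathway lists were, for each list and state, the DEG that rose most and the DEG that fell most among those with a mean of at least 1 CPM. *Gdf15*, *Thbs1*, *Tgif1*, *Bambi*, *Cx3cr1*, *Tcf4* and *Ets1* are named in further states beside those of the rule. Other named genes were also DEGs in states not described. *Furin* was higher in M2, *Tgfbi* higher and *Ltbp2* lower in M1, and *Lyl1* higher and *Ets2* lower in M0. Alternatives were DESeq2 1.42.0, RLE scaling, other filters, 6-library fits, replicate blocks, other fold criteria and leaving out each library. Leaving out both replicates 3 that stood apart, and the motif GTCTAGAC, were chosen after the data were seen.

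Replicate numbers come from the sample labels and were taken to pair libraries where each same-numbered pair's deviations correlated over 0.1, as in the knockout comparison of M2 (0.249 to 0.462) and in M1 against M0 of *Prep*-/- (0.169 to 0.259). The procedure was tested on simulated counts of 12021 genes for the knockout comparison in M0, where edgeR recovered 64% of changes of 1 and 89% of changes of 2 on the log2 scale. Of its calls, 4.4% were of unchanged genes. DESeq2 recovered 70% and 92%, with 9.5% of its calls of unchanged genes. Few genes were changed, in *Prep*-/- M0 alone, and no library was made to stand apart. These shares may therefore not hold for the real counts. Promoter sequences were from RefSeq (GRCm38.p6), placed in GRCm39 by exact match.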

Additional observations from a re-analysis of the deposited data

Results flagged for a closer look

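The knockout effect differed between states, by the interaction test of edgeR's quasi-likelihood fit, for 12 of 32 named genes tested between M1 and M0, beside 24.6% of all genes, and for 7 between M2 and M0, beside 9.64%. Values are differences of log2 fold changes, the polarized state minus M0.

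Between M1 and M0, *Id2* differed by 1.11 (adjusted p = 0.0236) and *Tgfb1* by -1.15 (adjusted p = 0.000210). *Thbs1* differed by -6.30 (adjusted p = 5.98e-07), *Gdf15* by 3.62 (adjusted p = 2.53e-05) and *Smad3* by -1.28 (adjusted p = 0.000167), and all 3 were DEGs of opposite direction in M0 and M1. *Tgfb1*, *Twsg1*, *Bambi* and *Tgif1* also had knockout values of opposite sign in these states, but were not DEGs in both. *Twsg1* differed by 1.24 (adjusted p = 6.22e-05), *Bambi* by 0.986 (adjusted p = 0.0148) and *Tgif1* by -0.712 (adjusted p = 0.0375). *Runx3* differed by 2.97 (adjusted p = 0.00207), *Cx3cr1* by 1.49 (adjusted p = 0.00900), *Tcf4* by -0.624 (adjusted p = 0.0365) and *Ets1* by 0.829 (adjusted p = 0.0419).

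Between M2 and M0, *Thbs1* differed by -2.53 (adjusted p = 0.00320), *Fstl3* by -2.54 (adjusted p = 0.0424) and *Twsg1* by 0.524 (adjusted p = 0.0443). *Tgfbi* differed by -0.936 (adjusted p = 0.0103), *Runx3* by 2.62 (adjusted p = 0.0325), *Tcf4* by -1.30 (adjusted p = 0.00157) and *Ets1* by 1.35 (adjusted p = 0.00684). Most of these genes were named because they changed in 1 state, which favors a difference between states.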

How the results depend on the processing

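No gene result that was called changed direction under any alternative, and of 3224 alternatives over 118 gene results 133 lost a call and 18 gained one. Counts that moved are given as members other than *Id1*, higher or lower. In the knockout comparison of M0, 1 higher became 0 with a filter of 1 CPM, with the replicate block in 18 or in 6 libraries and with glmTreat, and 3 without a fold criterion (leave-one-out 0 to 1). In M1, 0 higher became 2 without a fold criterion (leave-one-out 0 to 1) and 4 lower became 2 with glmTreat. In M2, without both libraries that stood apart, 0 higher became 1 (leave-one-out 0 to 1) and 3 lower became 5. With glmTreat the polarization counts became 1 higher in M1 of *Prep*+/-, 0 higher and 1 lower in M2 of *Prep*+/-, 1 lower in M1 of *Prep*-/- and 1 lower in M2 of *Prep*-/-. The last was 2 in the 6 libraries alone, with or without the replicate block. Leaving out 1 library gave 0 to 1 higher and 1 to 2 lower in M2 of *Prep*+/-, 2 to 4 lower in M2 of *Prep*-/-, and 1 to 3 differences in M1 and 0 to 1 in M2. Of the pathway lists, M0 had 16 higher without a fold criterion and 6 with glmTreat. M1 had 1 higher and 3 lower with glmTreat (leave-one-out 5 to 9 lower). M2 had 4 higher in 6 libraries, 2 higher and 2 lower with glmTreat, and 4 higher and 8 lower without both libraries that stood apart (leave-one-out 4 to 7 higher, 4 to 8 lower). Calls over all genes moved too. Without a fold criterion, 5826 of 12021 genes were called in M0 and 4370 in M1, in either direction. Without both libraries that stood apart, 1105 of 12123 genes were higher and 1673 lower in M2. No count over all genes is given for glmTreat. The cause of these moves was not tested. In comparisons whose numbers do not pair, the block over all 18 libraries took *Tgfbr2* in M0 under the fold criterion (0.572). It kept *Id3* (adjusted p = 0.00202) and *Smad6* (adjusted p = 0.0254) in M2 of *Prep*-/- and *Fstl3* in M0 (adjusted p = 0.0170), which the block in 6 libraries lost (adjusted p = 0.0502, 0.0869 and 0.0630). Of these, *Smad6* was also lost in 6 libraries without a block (adjusted p = 0.0703). Signs turned for uncalled values. When 1 library was left out, knockout values ranged from -0.306 to 0.0974 for *Id2* in M1, -0.969 to 0.187 for *Smad7* and -0.0352 to 0.126 for *Tgfbr1* in M2. Polarization values ranged from -0.551 to 0.146 and -0.452 to 0.307 for *Smad7* in M1 and M2 of *Prep*+/-, -0.335 to 0.803 for *Smad7*, -0.272 to 0.544 for *Bmpr1a* and -1.30 to 0.480 for *Id1* in M2 of *Prep*-/-, and -1.14 to 0.341 for *Bmpr1a* in M1 of *Prep*-/-, which was also -0.0162 with DESeq2, -0.0166 with RLE and -0.0380 with the block. Differences in M1 ranged from -0.305 to 0.0314 for *Tgfbr2* and -1.19 to 0.295 for *Bmpr1a*, and in M2 from -0.375 to 0.469 for *Smad6* (0.0032 with RLE), -0.222 to 0.932 for *Smad7* and -0.352 to 0.0418 for *Tgfbr2*. Without both libraries that stood apart, turned values were -0.0350 for *Tgfbr1* in M2, -0.0676 for *Bmpr1a* in M1 of *Prep*-/-, -0.341 for *Smad7* and -0.298 for *Bmpr1a* in M2 of *Prep*-/-, and differences in M2 of -0.226 for *Smad7* and -0.0331 for *Tgfbr1*. Depth limited *Bmpr1a*, *Smad6* and *Id1*, whose *Prep*-/- libraries held as few as 3, 7 and 2 counts.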
